A study of Homo sapiens with 6 samples.

Results

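The FASTK family comprises 6 genes, FASTK, FASTKD1, FASTKD2, FASTKD3, TBRG4 (also called FASTKD4) and FASTKD5, and all 6 were found by symbol among the 35238 gene rows of the count table. The family was chosen by the measured level of FASTKD2, known from these data to be nearly lost in the knockout, so that level is given as a description and carries no test. The other 5 members were taken by family name, not by their values. The 13 rows whose symbol starts with MT-, the messenger RNAs of the mitochondrial genome, were read beside them. RNA was sequenced from untreated HAP1 cells, an established human line that is near-haploid, with 3 wildtype libraries and 3 libraries of cells carrying a DEGS1 knockout. DEGS1 encodes the desaturase that makes ceramide from dihydroceramide, and the series asks what its loss does to the cell. The labels do not say whether the knockout was 1 clone, nor whether the replicates were separate cultures, so p-values speak only of the variation among these 6 libraries, some or all of which may be technical.

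FASTK family proteins share a C-terminal RAP domain, work mainly inside mitochondria and act on RNA after transcription. The mitochondrial genome is transcribed from both strands into long precursors that are cut into messenger, ribosomal and transfer RNAs, and each family member is known for an effect on some of these products. FASTKD2 binds the 16S ribosomal RNA and is needed for assembly of the large subunit of the mitochondrial ribosome. Inherited loss of FASTKD2 causes a mitochondrial encephalomyopathy.

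Library totals ran from 17322756 to 28988522 counts. The targeted gene, DEGS1, stood at 105, 123 and 95.5 CPM (a gene's counts relative to the scaled size of its library) in wildtype and at 9.49, 6.88 and 10.4 CPM in the knockout, which left 8.3% of the wildtype mean. Of 12 blood cell markers, read because HAP1 descends from a myeloid leukaemia line, 7 were under 1 CPM in every library, and SPI1, MPO and HBG1 had no count. Of the 6 tested markers, 4 had a negative and 2 a positive log2 fold change. KIT, a stem cell factor receptor, was the only 1 of them to pass edgeR's test, which 4.46% of all tested genes passed. Its mean went from 8.09 to 4.03 CPM (edgeR adjusted p = 0.023). KIT did not pass without wildtype replicate 1 (edgeR adjusted p = 0.0715), knockout replicate 1 (0.111) or knockout replicate 3 (0.133). In 2 libraries, wildtype replicate 3 and knockout replicate 1, the MTRNR2L rows, nuclear sequences that resemble mitochondrial 16S ribosomal RNA, held 0.29% and 0.47% of all counts, against 0.0109% to 0.0222% in the other 4 libraries. Results on mitochondrial RNA are therefore also given without these 2 libraries, and the part of the MTRNR2L counts in them was not tested.

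FASTKD2 lies on chromosome 2 beside MDH1B, a malate dehydrogenase-like gene transcribed from the opposite strand. The sequence before the start of FASTKD2 is shown because most of it is also the sequence before the start of MDH1B, and those before FASTKD1, on the same chromosome, and TBRG4, the most abundant member, are shown for comparison. Sequences are from RefSeq on GRCh38.p14, 250 bases ending just before each gene's start, 5′ to 3′ on the gene's strand, with CpG dinucleotides in capitals. GRCh38.p14 is not the build of the counts (hg19), and no coordinate was carried between them. The windows are chr2:206765356-206765605 (plus strand) for FASTKD2, chr2:169573866-169574115 (minus strand) for FASTKD1 and chr7:45111698-45111947 (minus strand) for TBRG4.
FASTKD2: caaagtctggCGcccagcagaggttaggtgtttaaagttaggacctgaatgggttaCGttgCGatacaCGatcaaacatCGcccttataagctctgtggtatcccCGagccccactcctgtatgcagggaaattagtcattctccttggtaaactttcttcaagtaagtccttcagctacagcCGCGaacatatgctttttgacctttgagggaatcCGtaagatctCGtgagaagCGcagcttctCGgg
FASTKD1: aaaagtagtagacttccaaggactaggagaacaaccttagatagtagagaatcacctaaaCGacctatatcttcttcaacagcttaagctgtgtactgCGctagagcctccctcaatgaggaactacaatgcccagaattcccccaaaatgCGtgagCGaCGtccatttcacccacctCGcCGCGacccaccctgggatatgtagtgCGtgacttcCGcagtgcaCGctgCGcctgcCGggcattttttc
TBRG4: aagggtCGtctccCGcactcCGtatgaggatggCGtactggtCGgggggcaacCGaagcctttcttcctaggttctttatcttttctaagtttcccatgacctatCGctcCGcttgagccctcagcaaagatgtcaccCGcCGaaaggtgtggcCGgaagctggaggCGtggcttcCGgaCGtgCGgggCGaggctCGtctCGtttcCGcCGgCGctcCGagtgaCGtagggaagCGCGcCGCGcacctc

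The FASTKD2 window holds 12 CpG dinucleotides, 0.82 of the number its base composition would give. FASTKD1 has 13 (0.83), TBRG4 27 (1.12), FASTK 31 (0.88) and FASTKD3 27 (0.98), and the median over 35114 promoter windows of the same length is 0.56, with quartiles of 0.22 and 0.85. FASTKD2 and FASTKD1 have the lower GC content, 48.4% and 50.8%, against 62.0% to 75.2% in the other 3 members matched. FASTKD5 was not matched. The RefSeq starts of FASTKD2 and MDH1B lie 278 bases apart, and their windows share 223 bases, or 89.2%. Motifs were searched on both strands: the site of NRF1, an activator of many nuclear genes for mitochondrial proteins, CCGGAAGT for ETS factors, AAGATGGC for YY1 and CCAAT for the CCAAT box. None of the 4 was found in the windows of FASTKD2, FASTKD1 and TBRG4. FASTK has 1 CCAAT match and FASTKD3 has 2, a motif present in 32.0% of 35116 windows. MDH1B has an NRF1 match, GCGCCTGCGC, that begins 23 bases before its own start and lies outside the FASTKD2 window. NRF1 matches occur in 5.1% of windows, ETS in 3.4% and YY1 in 1.4%.

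FASTKD2 was present in every wildtype library and close to absent in every knockout library. The wildtype libraries held 882, 662 and 748 counts of it, the knockout libraries 5, 4 and 10. On the scaled level this was 34.7, 24.6 and 40.1 CPM against 0.257, 0.153 and 0.364 CPM. All 3 knockout libraries lay far below the lowest wildtype library, and lay close to the lowest level that the depth resolves, taken as 3 counts or 0.109 to 0.161 CPM over the 6 libraries. The mean fell from 33.1 ± 7.86 to 0.258 ± 0.106 CPM (SD, n = 3 each), which left 0.779% of it. The wildtype level was 124 times that of the knockout (95% exact interval 79.3 to 207, counting error only). On the log2 scale the fold change was -6.96 (SE 0.30), and over 18 other settings it stayed between -7.34 and -6.67. The share of the wildtype level that remained was thus smaller than for DEGS1, the targeted gene. RNA was measured in bulk, so fewer cells with the transcript and less transcript per cell cannot be told apart.

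**Figure D1:**
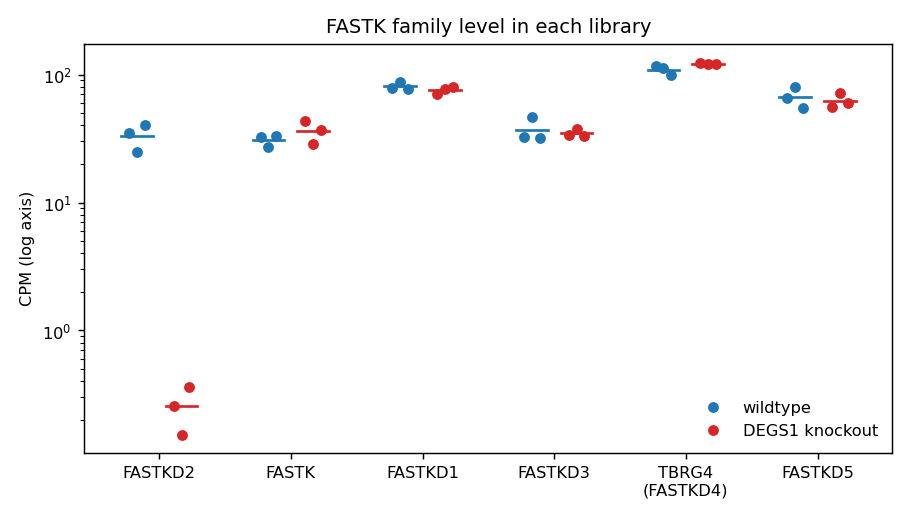
Level of each FASTK family gene in each library, in CPM on a log axis. Points are libraries and lines are group means. FASTKD2 drops from 33.1 to 0.258 CPM, while the other 5 genes lie at similar levels in both genotypes.

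In GENCODE release 29, unlike at the RefSeq starts given above, exons of MDH1B overlap FASTKD2 on the opposite strand, so part of their sequence is shared. The RNA kit was stranded, but the strand setting of the counting was not given. Whether reads from there were told apart is therefore unknown. Of the 3114 stretches of 75 bases, the read length, in the longest coding transcript of FASTKD2 in GENCODE release 29, 117 (3.76%) also occur, on one strand or the other, in transcripts of MDH1B. The share of the 19 knockout counts of FASTKD2 that came from this stretch was not tested. No stretch of 75 bases is shared between any family members, so reads could not be split between paralogs. FASTKD5 shares 59 of 2800 such stretches with UBOX5, and FASTKD1 shares 3 of 2893 with another gene.

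The genes beside FASTKD2 did not show a loss of similar size. MDH1B, the nearest on one side, stood at 1.85, 0.817 and 2.14 CPM in wildtype and at 0.821, 0.765 and 0.875 CPM in the knockout. Wildtype replicate 2 fell within the knockout range, and the other 2 wildtype libraries were above it. The log2 fold change was -0.95 (edgeR adjusted p = 0.25, SE 0.39), and without wildtype replicate 2 it was -1.27 (edgeR adjusted p = 0.0102). That last fit called 3825 of 17305 genes. KLF7, a zinc finger factor and the nearest tested gene on the other side, had a log2 fold change of 0.27 (edgeR adjusted p = 0.224, SE 0.11).

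Over all tested genes, 4.46% passed edgeR's test and 16.5% had an unadjusted p under 0.05. Of the 10 tested genes beside FASTKD2, 5 on either side, none passed and 3 had an unadjusted p under 0.05. Their log2 fold changes ran from -0.95 to 0.48. The highest was that of ZDBF2, an imprinted gene named here after its value was seen, which stood at 81.3, 100 and 80.2 CPM in wildtype and at 116, 132 and 116 CPM in the knockout (log2 fold change 0.48, edgeR adjusted p = 0.0513, SE 0.12). It lay above wildtype in all 3 knockout libraries and passed in 8 of 19 other settings. In the same count for the other 5 members, 1 of 50 tested neighbours passed. This was LRP2, an endocytic receptor beside FASTKD1, which dropped from a mean of 2.42 CPM to 0.733 CPM (log2 fold change -1.75, edgeR adjusted p = 0.0305, SE 0.40). LRP2 did not pass without wildtype replicate 1 (0.0867) or 3 (0.0569), nor without knockout replicate 2 (0.119) or 3 (0.177). With all 6 libraries kept, it did not pass under upper-quartile scaling (edgeR adjusted p = 0.0558) or scaling by library size only (0.0709) either.

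**Figure D2:**
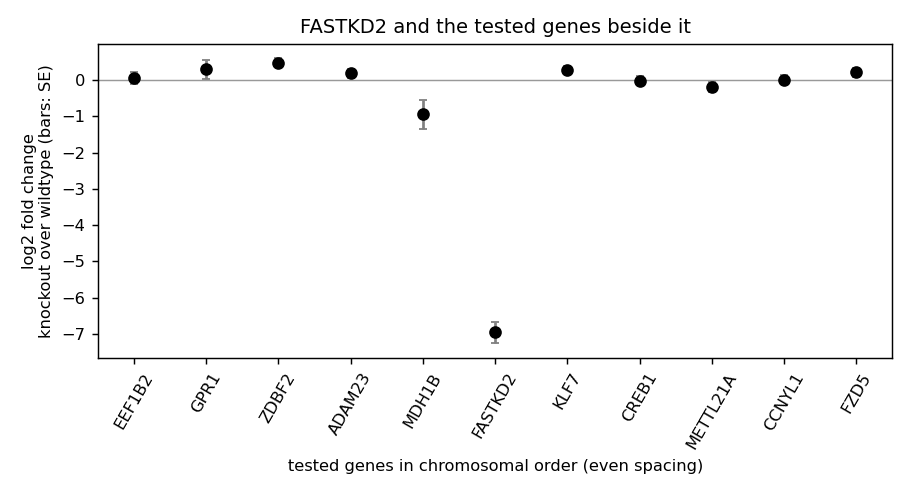
Log2 fold change, knockout over wildtype, of FASTKD2 and the 5 tested genes on either side in chromosomal order, with SE. FASTKD2 stands at -6.96, and its 10 neighbours lie between -0.95 and 0.48.

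The 5 paralogs of FASTKD2 stayed near their wildtype level. None of the 5 passed edgeR's test at an adjusted p under 0.05, where 4.46% of all 16954 tested genes did (1.51% higher and 2.95% lower in the knockout). None had an unadjusted p under 0.05 either, against 16.5% of all tested genes. None passed DESeq2's Wald test or limma voom either. Their log2 fold changes ran from -0.10 to 0.24 with a median of -0.09, beside a median of -0.02 over all tested genes.

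FASTK, the founding member, whose mitochondrial form is needed for the ND6 messenger RNA, stood at 32.7, 27.1 and 32.8 CPM in wildtype and at 43.5, 28.9 and 36.8 CPM in the knockout. The groups overlapped, since knockout replicate 2 lay below 2 wildtype libraries. This gave a log2 fold change of 0.24 (edgeR adjusted p = 0.477, SE 0.15), and its 95% interval ran from 0.938-fold to 1.48-fold.

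TBRG4, which stabilises several mitochondrial messenger RNAs, was the 1 paralog whose groups did not overlap, a pattern seen in 20.8% of all tested genes (9.24% higher and 11.6% lower in the knockout). It stood at 116, 112 and 98.4 CPM in wildtype and at 124, 121 and 120 CPM in the knockout. The log2 fold change was 0.17 (edgeR adjusted p = 0.497, SE 0.11, 95% interval 0.95-fold to 1.32-fold). The knockout libraries differed little among themselves, with an SD of 2.32 CPM against 9.0 CPM in wildtype.

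FASTKD1, which is linked to the level of the ND3 messenger RNA, stood at 78.9, 88.1 and 77.2 CPM in wildtype and at 70.4, 76.9 and 80.4 CPM in the knockout. The difference was within the spread of the libraries (log2 fold change -0.10, edgeR adjusted p = 0.682, SE 0.11, 95% interval 0.793-fold to 1.1-fold). FASTKD3, a member known for an effect on respiration, stood at 32.6, 46.6 and 31.9 CPM in wildtype and at 33.9, 37.7 and 33.0 CPM in the knockout. All 3 knockout libraries lay between the wildtype libraries (log2 fold change -0.09, edgeR adjusted p = 0.806, SE 0.15, 95% interval 0.75-fold to 1.18-fold). FASTKD5, needed to cut precursors at ends that no transfer RNA flanks, stood at 65.1, 80.2 and 54.7 CPM in wildtype and at 55.8, 71.7 and 60.1 CPM in the knockout, again within the wildtype range (log2 fold change -0.09, edgeR adjusted p = 0.793, SE 0.15, 95% interval 0.75-fold to 1.17-fold). FASTKD3 and FASTKD5 were each highest in replicate 2 of both genotypes, and without wildtype replicate 2 their log2 fold changes were 0.12 and 0.07.

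Between genes, levels were compared per kilobase of the longest coding transcript. In wildtype the order was TBRG4 at 48.4 CPM per kilobase, FASTKD1 at 27.4, FASTKD5 at 23.2, FASTK at 16.9, FASTKD3 at 15.4 and FASTKD2 at 10.4. The ranges of FASTKD1 and FASTKD5 overlapped, as did those of FASTK and FASTKD3, while TBRG4 stood above and FASTKD2 below all others in each wildtype library. FASTKD2 was thus the least abundant member already in wildtype, with 7.6%, 5.16% and 9.47% of the summed family level. In the knockout it made up 0.0352% to 0.0844%. The summed level of the other 5 members was 132, 142 and 120 CPM per kilobase in wildtype and 136, 136 and 135 in the knockout, so the knockout libraries fell within the wildtype range. FASTKD5 and FASTK overlapped in the knockout, and FASTK and FASTKD3 did not.

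None of the 13 mitochondrial messenger RNA rows passed edgeR's test or had an unadjusted p under 0.05, and none passed DESeq2's Wald test or limma voom. Over all tested genes these shares were 4.46% and 16.5% in edgeR. Without the 2 libraries rich in MTRNR2L counts, again 0 of the 13 passed and 1 had an unadjusted p under 0.05. Of the 13, 10 had a negative and 3 a positive log2 fold change, where 8937 of all 16954 tested genes had a negative one. The median of the 13 was -0.10, with a range of -0.40 to 0.14, beside a median of -0.02 over all tested genes. Without the 2 libraries rich in MTRNR2L counts these medians were -0.23 and -0.01. No row starting with MT- was that of a mitochondrial ribosomal or transfer RNA, so the 16S ribosomal RNA to which FASTKD2 binds was not measured directly.

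**Figure D3:**
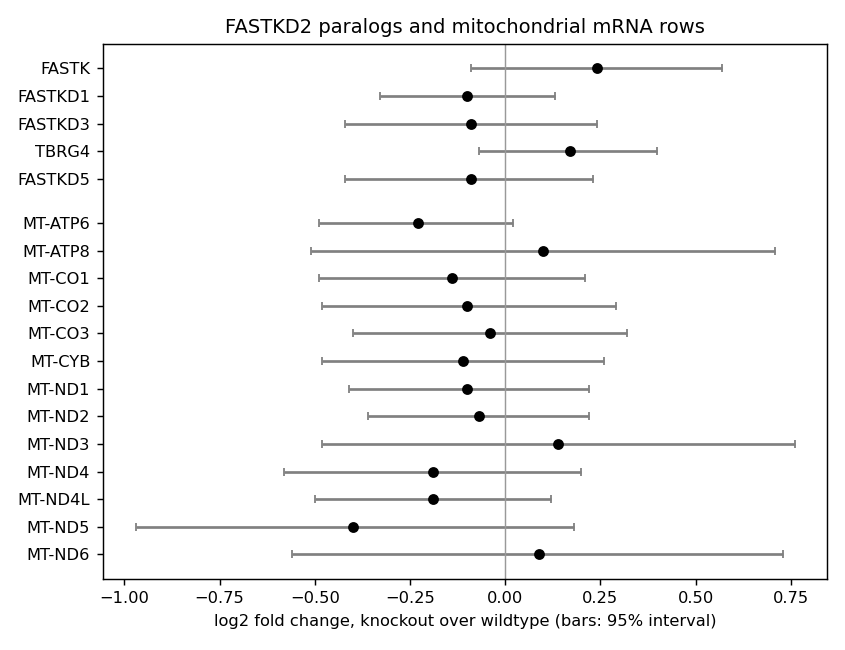
Log2 fold change, knockout over wildtype, with 95% interval, of the 5 paralogs of FASTKD2 and the 13 mitochondrial messenger RNA rows. Every interval includes 0, and the values run from -0.40 for MT-ND5 to 0.24 for FASTK.

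The subunits of cytochrome c oxidase were the most abundant mitochondrial rows, and their groups overlapped. MT-CO1 stood at 2297, 2658 and 2170 CPM in wildtype and at 1903, 2139 and 2430 CPM in the knockout (log2 fold change -0.14, edgeR adjusted p = 0.711, SE 0.16). MT-CO2 had a log2 fold change of -0.10 (SE 0.18) and MT-CO3 one of -0.04 (SE 0.17). MT-CYB, the cytochrome b of complex III, had one of -0.11 (SE 0.17). All of these were highest in wildtype replicate 2 among the wildtype libraries, and without it MT-CO2, MT-CO3 and MT-CYB had log2 fold changes of 0.12, 0.11 and 0.11.

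The ATP synthase subunit MT-ATP6 was the 1 row of the 13 whose groups did not overlap, a pattern seen in 20.8% of all tested genes. It stood at 202, 231 and 221 CPM in wildtype and at 189, 190 and 177 CPM in the knockout (log2 fold change -0.23, edgeR adjusted p = 0.348, SE 0.12). Each knockout library was lower than each wildtype library, and the adjusted p ran from 0.0876 to 0.96 over 19 other settings. Of its 607 stretches of 75 bases, 28.01% also occur in the nuclear copy MTATP6P1, so the division of reads between the 2 rows is uncertain. MT-ATP8 was shallow, at 52 to 90 counts per library, with a log2 fold change of 0.10 (SE 0.28).

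Among the complex I subunits, MT-ND5 had the lowest log2 fold change, -0.40 (edgeR adjusted p = 0.494, SE 0.26). It stood at 421, 252 and 464 CPM in wildtype and at 382, 262 and 219 CPM in the knockout. The groups overlapped, with an SD of 112 CPM in wildtype and 84.5 CPM in the knockout. MT-ND4 and MT-ND4L each had a log2 fold change of -0.19 (SE 0.18 and 0.14), MT-ND1 one of -0.10 (SE 0.14) and MT-ND2 one of -0.07 (SE 0.13).

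MT-ND3, the message linked to FASTKD1, stood at 128, 225 and 99.4 CPM in wildtype and at 144, 177 and 176 CPM in the knockout. Wildtype replicate 2 was the highest of the 6 libraries and the other 2 wildtype libraries the lowest. The log2 fold change was 0.14 (edgeR adjusted p = 0.84, SE 0.27). Without wildtype replicate 2 it was 0.55 (edgeR adjusted p = 0.0129), in a fit that called 3825 of 17305 genes.

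MT-ND6, the only messenger RNA of the light strand and a known target of FASTK and FASTKD2, stood at 24.8, 31.8 and 29.2 CPM in wildtype and at 46.3, 24.1 and 21.2 CPM in the knockout. Knockout replicate 1 was the highest of all 6 libraries and the other 2 knockout libraries the lowest. Over all 6 libraries the log2 fold change was 0.09 (edgeR adjusted p = 0.904, SE 0.28), and without knockout replicate 1 it was -0.32 (edgeR adjusted p = 0.424). As a share of all mitochondrial messenger RNA counts, MT-ND6 took 0.366%, 0.398% and 0.448% in wildtype and 0.715%, 0.383% and 0.306% in the knockout. The log2 ratio of MT-ND6 to the other 12 rows differed by 0.12 between genotypes (exact two-sided permutation p = 0.9, adjusted over 2 such comparisons 0.9, n = 3 each). Knockout replicate 1 is also the library with the highest share of MTRNR2L counts, and the part of that in the MT-ND6 value was not tested.

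**Figure D4:**
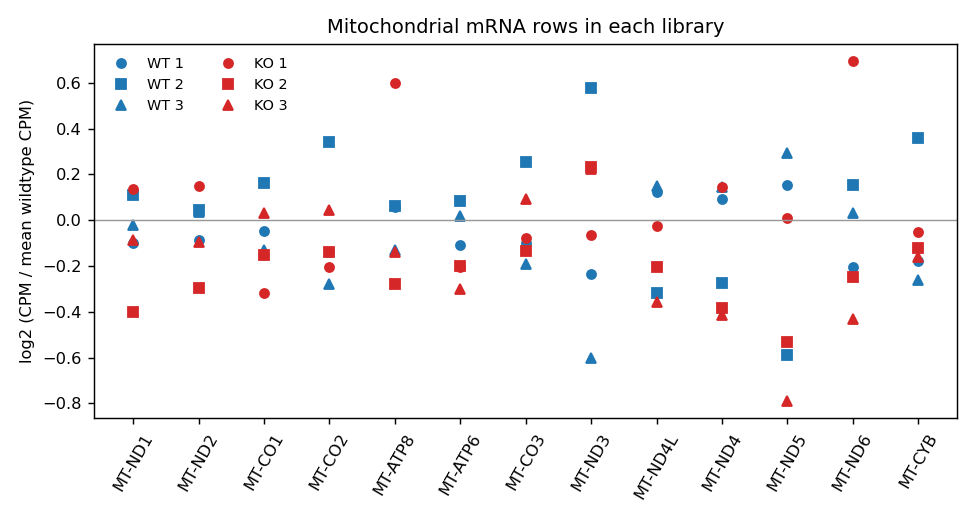
Log2 of each library's CPM over the mean wildtype CPM for the 13 mitochondrial messenger RNA rows. MT-ND3 is highest in wildtype replicate 2 (225 CPM) and lowest in wildtype replicate 3 (99.4 CPM), and MT-ND5 is highest in wildtype replicate 3 (464 CPM) and lowest in knockout replicate 3 (219 CPM).

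The mitochondrial messenger RNA rows together held 0.714%, 0.742% and 0.704% of all counts in the wildtype libraries and 0.65%, 0.596% and 0.689% in the knockout libraries. All 3 knockout libraries lay below all 3 wildtype libraries. The mean was 0.72% ± 0.0201 against 0.645% ± 0.0467 (SD, n = 3 each), with an exact two-sided permutation p = 0.1, the smallest that 3 against 3 libraries can give, and 0.2 adjusted over 2 comparisons. Without the 2 libraries rich in MTRNR2L counts the difference was -0.085 percentage points, against -0.075 with all 6. With the counts of all nuclear copies, the MTRNR2L rows among them, added to the mitochondrial sum it was -0.014 percentage points (exact permutation p = 0.9). With the copies other than MTRNR2L added it was -0.076 (exact permutation p = 0.1), so the smaller value rests on the MTRNR2L rows, which resemble ribosomal and not messenger RNA. Of the 13 MTRNR2L rows, 8 were tested and 0 passed edgeR's test (smallest adjusted p = 0.649), where 4.46% of all tested genes passed.

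**Figure D5:**
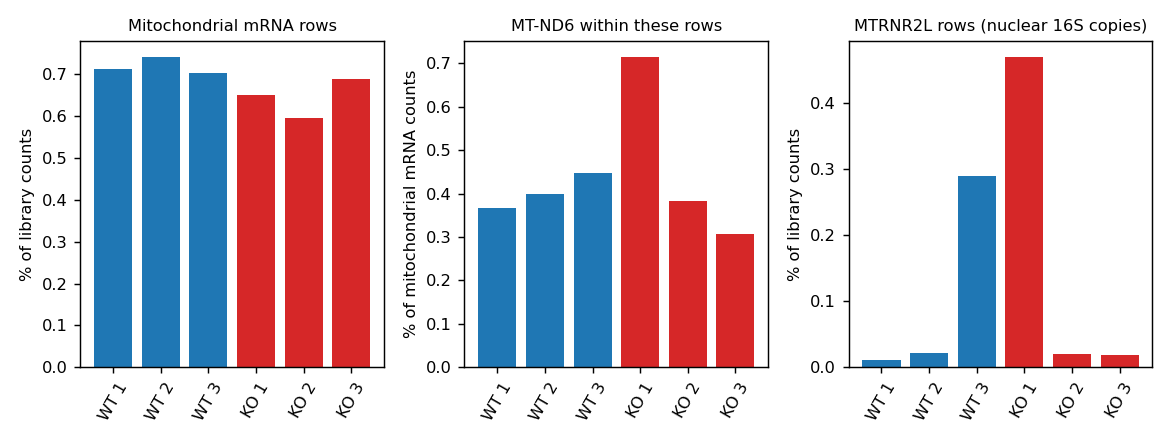
Per library: share of counts on the 13 mitochondrial messenger RNA rows, share of MT-ND6 among these, and share of counts on the MTRNR2L rows. The first is 0.704% to 0.742% in wildtype and 0.596% to 0.689% in the knockout. MT-ND6 reaches 0.715% in knockout replicate 1, and the MTRNR2L rows reach 0.47% there and 0.29% in wildtype replicate 3.

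Nuclear genes that act on mitochondrial RNA beside the FASTK family also gave no calls. FASTKD2 works with a module of 5 other proteins on the 16S ribosomal RNA, and 0 of 5 tested genes of it passed. Of all tested genes 4.46% passed, so 0 of 5 lies near that share. RPUSD3, a pseudouridine synthase of the module, stood at 43.4, 43.5 and 41.4 CPM in wildtype and at 62.0, 45.4 and 59.7 CPM in the knockout, each knockout library being higher (log2 fold change 0.38, edgeR adjusted p = 0.138, SE 0.13). With wildtype replicate 2 left out it passed (edgeR adjusted p = 0.0465), as it did with knockout replicate 2 left out (0.0312). The first of these fits called 3825 of 17305 genes and the second 625 of 17304. The other 4, NGRN, RCC1L, RPUSD4 and TRUB2, had log2 fold changes of 0.10, -0.02, -0.01 and -0.14.

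In the remaining lists the number of tested genes that passed was 0 of 14 for mitochondrial RNA processing and turnover, 0 of 13 for transcription and replication of the mitochondrial genome, 0 of 20 for ribosome assembly and ribosomal RNA modification, and 0 of 13 for translation factors. Over all tested genes 4.46% passed and 16.5% had an unadjusted p under 0.05. In each of the 4 lists 1 gene had such an unadjusted p. The oligoribonuclease REXO2 had a log2 fold change of 0.34 (edgeR adjusted p = 0.184, SE 0.13), the primase-polymerase PRIMPOL one of 0.30 (SE 0.13, 0.282), the helicase DDX28 one of -0.33 (SE 0.14, 0.249) and the initiation factor MTIF2 one of 0.29 (SE 0.11, 0.197). DDX28 lies on chromosome 16. The median log2 level of that chromosome's genes shifted by -0.16 in the knockout, relative to all genes (those with mean log2 CPM above 3). With this shift removed DDX28 stood at -0.17 (edgeR adjusted p = 0.602). Without wildtype replicate 2, REXO2 (edgeR adjusted p = 0.00745), PRIMPOL (0.0442) and MTIF2 (0.0102) passed. That fit called 3825 of 17305 genes, against 756 of 16954 with all 6 libraries. Of 49 rows for proteins of the large mitochondrial ribosomal subunit, which FASTKD2 helps to assemble, 0 passed and 3 had an unadjusted p under 0.05. Of these 49, 39 had a positive log2 fold change, with a median of 0.11, beside 15 of 29 and a median of 0.01 for the small subunit and 8017 of 16954 and a median of -0.02 for all tested genes. MRPL41 had the smallest p of the large subunit (log2 fold change 0.41, edgeR adjusted p = 0.0899, SE 0.12). It passed without wildtype replicate 2 (edgeR adjusted p = 0.0327), in the fit that called 3825 genes. MRPS31 had the smallest p of the small subunit (log2 fold change -0.25, edgeR adjusted p = 0.337, SE 0.12). Its chromosome, 13, had a shift of -0.34 on the same measure, and with chromosome shifts removed MRPS31 stood at 0.10.

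The genes whose profile over the 6 libraries was most like that of FASTKD2 were ALDH1A2, TCEAL9, SLC17A9, IFI16 and CTDSPL. Likeness was the distance between log2(CPM + 0.5) values centred on each gene's mean, which was 0.91 for ALDH1A2 and 1.75 for CTDSPL. These genes were chosen for this pattern, so their values are a description. ALDH1A2, an enzyme of retinoic acid synthesis, had 41.9 to 43.3 CPM in wildtype and 0.918 to 1.06 CPM in the knockout. TCEAL9 had 8.69 to 18.1 CPM in wildtype and 0 to 0.103 CPM in the knockout, and like FASTKD2 it was lowest in replicate 2 among the wildtype libraries and in knockout replicate 2 among the knockout libraries. SLC17A9, a vesicular nucleotide transporter, was also lowest in replicate 2 of either genotype, with 17.1, 10.8 and 15.7 CPM in wildtype and 0.257, 0.0382 and 0.109 CPM in the knockout. The knockout order rests on 2, 0 and 1 counts of TCEAL9 and 5, 1 and 3 of SLC17A9, close to or under the floor of 3 counts. The DNA sensor IFI16 and the phosphatase CTDSPL had 10.9 to 14.4 and 40.6 to 51.2 CPM in wildtype, and 0.103 to 0.182 and 1.72 to 2.70 CPM in the knockout.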

How the data were processed

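The authors deposited whole-number read counts for each gene symbol, without normalization, with 17322756 to 28988522 counts per library. Per the labels' protocols they come from a stranded total RNA kit sequenced as single 75 nt reads, and per the submitters' processing notes bcl2fastq 2.20 and hg19 were used. Aligner, counter, annotation and strand setting were not given in the sources used here. Reads of overlapping and antisense genes may therefore be split or merged. Differences between genotypes were fitted over the whole table in edgeR 4.0.16 (R 4.3.3), with its expression filter, scaling by trimmed mean of M values, a robust quasi-likelihood F test on genotype, and Benjamini-Hochberg adjustment over 16954 genes, called under 0.05. Standard errors were derived from each gene's log2 fold change and F statistic. Per-library shares were compared by exact permutation. Intervals on count ratios and the floors cover counting error only, while those on fold changes come from the fit. Replicates differed by more than sampling noise in each pair, with a chi-square of 12.6 to 52.6 per degree of freedom. The script was tested on simulated data.

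Members, lists and the naming rule were chosen with earlier results of these data known. The rule names every member and mitochondrial row, up to 4 called genes of each list or else the one with the smallest p, called neighbours and the nearest ones of FASTKD2, and the 5 most similar profiles. Lists were matched by symbol or older symbol. Alternatives were other scalings, DESeq2 1.42.0, limma 3.58.1 voom, other filters, a replicate block, each library left out, a threshold of 0.01, and removal of chromosome medians or of length and GC trends. Leaving out both libraries rich in MTRNR2L counts, and adding nuclear copies other than MTRNR2L, were chosen after seeing the data. The planned ratio of 16S to 12S ribosomal RNA and the planned protein comparison were not run.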

Additional observations from a re-analysis of the deposited data

How the results depend on the processing

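None of the 5 paralogs passed in any of the 19 other settings run. FASTKD2 kept its direction in the 18 settings in which it was refitted, but its choice by near loss in these libraries fixed this beforehand. The number of genes called overall ran from 380 to 3825 when 1 library was left out (for wildtype, 441 with replicate 1 removed and 3825 with replicate 2 removed; for the knockout, 424 with replicate 1 removed and 380 with replicate 3 removed), and was 375 at a threshold of 0.01. The mitochondrial rows called were 0 in 18 settings and 1 (MT-ND3) without wildtype replicate 2, so leaving out 1 library gave 0 to 1. The log2 ratio of MT-ND6 to the other rows ran from -0.236 (without knockout replicate 1) to 0.38 when 1 library was left out, and was -0.159 without both libraries rich in MTRNR2L counts. The difference in mitochondrial share ran from -0.097 to -0.05 percentage points when 1 library was left out. The log2 fold change of 11 genes changed sign in some setting, none of them passing in either direction except MT-ND3. When 1 library was left out, FASTKD3 ran from -0.18 to 0.12, FASTKD5 from -0.22 to 0.07, MT-CO2 from -0.22 to 0.12 and MT-CO3 from -0.12 (with 0.01 without knockout replicate 2) to 0.11. MT-CYB reached 0.11, these highest values all being those without wildtype replicate 2. MT-ND1 ran from -0.21 to 0.04, MT-ND2 from -0.17 to 0.04, MT-ATP8 from -0.19 to 0.26, MT-ND3 from -0.09 to 0.55 and MT-ND6 from -0.32 (with -0.0046 without wildtype replicate 1) to 0.30. Without both libraries rich in MTRNR2L counts, MT-ATP8 stood at -0.26 and MT-ND6 at -0.31. MT-ND6 stood at -0.02 in limma voom and at -0.02 with the length and GC trend removed, and MRPS31 at 0.10 relative to its chromosome. The cause was not tested.

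Same-numbered libraries of the 2 genotypes share a code in their labels, whose meaning the labels do not give, so whether they were handled together is unknown. In the data the numbers were not treated as pairs: same-numbered libraries had correlations of 0.25, 0.41 and -0.23 in their deviations from the group means, and not every library correlated best with its own number. With the replicate number as a block, 1082 genes were called against 756, with 0 of the 5 paralogs and 0 of the 13 mitochondrial rows, and ZDBF2 passed (edgeR adjusted p = 0.0113 against 0.0513). The share difference stayed at -0.075 percentage points (exact paired permutation p = 0.25, the smallest that this paired test can give here) and the MT-ND6 difference at 0.121 (p = 1.0). Rises of up to 1.48-fold for FASTK and 1.69-fold for MT-ND3 lie within the 95% intervals. So do falls to 0.75-fold for FASTKD3 and FASTKD5 and to 0.51-fold for MT-ND5.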

Other observations

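Within the mitochondrial messenger RNAs, the libraries divided in a way that crossed genotype. MT-CO1, MT-CO2 and MT-CO3 together took 71.3%, 74.9% and 69.4% of the mitochondrial messenger RNA counts in the wildtype libraries, and 68.6%, 73.7% and 76.7% in those of the knockout. Wildtype replicates 1 and 3 and knockout replicate 1 were low, and the other 3 libraries were high. Library size divided in the same way, with 17322756 to 24170525 total counts in the low libraries and 27604956 to 28988522 in the high ones. Scaling factors did so too, at 1.006 to 1.079 against 0.9294 to 0.9926. The part of these in the division was not tested. MT-ND3 followed the same division: per 100 counts on MT-ND5 it had 30.4, 89.4 and 21.4 counts in wildtype libraries and 37.6, 67.7 and 80.4 in knockout libraries. These genes were picked after their values were seen, and the 3 libraries are not a group of the study.

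Some mitochondrial rows share much of their sequence with nuclear copies. Of the stretches of 75 bases in MT-CO1, 36.65% also occur in MTCO1P12, of those in MT-ND2 34.4% occur in MTND2P28, and of those in MT-ND1 16.33% occur in MTND1P23. No such stretch was found for MT-CYB, MT-ND3, MT-ND4, MT-ND4L and MT-ATP8. Of 373 nuclear copy rows other than MTRNR2L, 25 were tested and 0 passed edgeR's test (smallest adjusted p = 0.0776), where 4.46% of all tested genes passed.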
